A study of Mus musculus with 2 samples.

Results

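The let-7 family is a set of small regulatory RNAs (miRNAs) cut from hairpin transcripts, and 9 of its genes in the mouse stand away from the genes of the miR-99/100 and miR-125 families. These 9 genes are Mirlet7a-1, Mirlet7f-1, Mirlet7d, Mirlet7b, Mirlet7c-2, Mirlet7g, Mirlet7i, Mirlet7f-2 and Mir98. They were taken by symbol in the GENCODE M21 annotation, and all 9 were found among 2202 measured miRNA genes. The other 3 let-7 genes, Mirlet7a-2, Mirlet7c-1 and Mirlet7e, lie in clusters with miR-99/100 or miR-125 genes and served for comparison. Total RNA came from heart tissue of B6CASTF1/J mice, an F1 cross; the mice were female and 36 days of age by the age field, while a free-text label gives the same number in months. They form 1 group with 2 biological replicates, each with 1 technical replicate, and the labels name no treatment. Each heart has its own biosample record, and both records carry the same donor code. The labels give the insert size class only as under 30.

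A let-7 primary transcript is cut to a hairpin in the nucleus and to a short duplex in the cytoplasm, where 1 strand is loaded into an Argonaute protein. The loaded strand pairs with mRNAs mainly through its seed, bases 2 to 8, and lowers their stability and translation. The family is known for rising as cells differentiate. The RNA-binding protein LIN28 is known to block the maturation of let-7 hairpins in stem and progenitor cells, and the family stays abundant in adult tissues such as the heart.

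The mature sequences show what the 9 genes share and where they differ. They were taken from RefSeq (GRCm38.p6), which matched all 12 let-7 genes, and the hairpins had the same place and letters in GENCODE M21 and RefSeq. Each line gives the strand from the 5′ arm (5p), the strand for which the family is named, with its seed in capitals.
let-7a-5p (Mirlet7a-1): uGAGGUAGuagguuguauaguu
let-7b-5p (Mirlet7b): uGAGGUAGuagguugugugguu
let-7c-5p (Mirlet7c-2): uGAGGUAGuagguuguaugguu
let-7d-5p (Mirlet7d): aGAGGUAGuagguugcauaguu
let-7f-5p (Mirlet7f-1 and Mirlet7f-2): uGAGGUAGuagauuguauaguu
let-7g-5p (Mirlet7g): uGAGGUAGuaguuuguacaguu
let-7i-5p (Mirlet7i): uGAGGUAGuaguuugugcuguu
miR-98-5p (Mir98): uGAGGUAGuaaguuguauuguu

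All 9 genes carry the same 5p seed, GAGGUAG, and each 5p sequence is 22 bases long. They encode 8 different 5p sequences, which differ in the first base or beyond the seed. Counted from 1 at the 5′ end and relative to let-7a, let-7f has G12A and let-7c has A19G. Let-7b has A17G and A19G, so it lies 1 base from let-7c. Let-7d has U1A and U16C, let-7g has G12U and U18C, and miR-98 has G11A and A19U. Let-7i differs most, with G12U, A17G, U18C and A19U, and its nearest relative is let-7g at 2 differences. Outside the 12 let-7 genes, RefSeq lists 2 mature miRNAs with this seed. Mir7k, which encodes let-7k, had 1 count in each library, and Mir1961 had 0 counts in both, which allows up to 3 counts (1.45 CPM for replicate 1, 1.70 CPM for replicate 2).

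The 9 genes occupy 5 loci, given here in mm10 with 1-based coordinates. Mirlet7a-1 (chromosome 13, 48538179 to 48538272), Mirlet7f-1 (48537829 to 48537917) and Mirlet7d (48536012 to 48536114) follow each other on the minus strand in exons of the lincRNA 6720427I07Rik. Mirlet7c-2 (chromosome 15, 85706603 to 85706697) and Mirlet7b (85707319 to 85707403) lie on the plus strand in exons of the noncoding transcript Lncppara. Mirlet7f-2 (chromosome X, 151912346 to 151912428) and Mir98 (151913214 to 151913321) lie on the plus strand in intronic sequence of the ubiquitin ligase gene Huwe1. Mirlet7g (chromosome 9, 106178840 to 106178927, plus strand) lies in an intron of Wdr82, which encodes a subunit of histone methyltransferase complexes. Mirlet7i (chromosome 10, 122985640 to 122985724, minus strand) lies in an exon of D630033A02Rik, annotated as a transcribed processed pseudogene. Thus 6 of the 9 overlap exons of noncoding hosts and 3 lie in introns of protein-coding hosts, while all 3 clustered let-7 genes lie in introns.

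Values are raw read counts on the gene's strand, also given as counts per 1000000 counts over all miRNA genes (CPM). The count tables hold 5606848 reads in replicate 1 and 4990632 in replicate 2, of which 2074961 and 1766135 fell on miRNA genes. Reads that map to several places, 42.0% of reads in replicate 1 and 39.8% in replicate 2, are in no gene's count. The heart muscle genes Mir208a, Mir499 and Mir208b, which lie in myosin heavy chain genes, were counted in both libraries with sums of 6143 CPM for replicate 1 and 8701 CPM for replicate 2. The intervals given are 95% intervals and, like the limit from a count of 0, cover counting error only, since PCR reads are not independent molecules.

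The 9 genes held a large part of the heart's uniquely placed miRNA reads, and 4 of them, Mirlet7i, Mirlet7g, Mirlet7b and Mirlet7d, held nearly all of that. All 9 reached the detection limit of 2 CPM in each of the libraries, against 15.2% of all measured genes. Together they had 561372 counts in replicate 1, or 27.1% of the reads on miRNA genes (exact interval 27.0 to 27.1), and 408112 counts in replicate 2, or 23.1% (23.0 to 23.2). The mean was 25.1% ± 2.79 (SD, n = 2). The 4 abundant genes made up 96.3% of the 9 genes' counts in replicate 1 and 95.8% in replicate 2. Of the uniquely placed counts of all 12 let-7 genes, the 9 held 97.8% in replicate 1 and 97.0% in replicate 2. The 3 clustered let-7 genes had 12847 counts in replicate 1 and 12784 in replicate 2. Mirlet7e held 11334 of these in replicate 1 and 11293 in replicate 2. The 5p sequences of Mirlet7a-2 and Mirlet7c-1 each stand in 2 measured hairpins, and reads that hold only these are in no gene's count. The counts therefore do not give the part of the clusters in mature let-7.

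Mirlet7i was the highest of the 9 in both hearts. It had 196338 counts (94622 CPM) in replicate 1 and 130458 counts (73866 CPM) in replicate 2, a mean of 84244 ± 14677 CPM (SD, n = 2). Its lower library stood close to the higher library of Mirlet7g, which had 73776 CPM in replicate 1 (153082 counts) and 49444 CPM in replicate 2 (87325 counts). Within a library, Mirlet7i exceeded Mirlet7g by 1.28 times (1.27 to 1.29) in replicate 1 and by 1.49 times (1.48 to 1.51) in replicate 2.

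Mirlet7b came next in mean level, with 41163 CPM in replicate 1 (85411 counts) and 58468 CPM in replicate 2 (103263 counts). Mirlet7d had 51050 CPM in replicate 1 (105926 counts) and 39545 CPM in replicate 2 (69842 counts). The libraries of Mirlet7g and Mirlet7b overlapped, and so did those of Mirlet7b and Mirlet7d, so the levels of neighbours among these 3 genes did not differ beyond the spread between hearts. In replicate 1 the order was Mirlet7g, Mirlet7d, Mirlet7b, and in replicate 2 it was Mirlet7b, Mirlet7g, Mirlet7d. Among all miRNA genes by mean CPM, Mirlet7i ranked 2, Mirlet7g 4, Mirlet7b 7 and Mirlet7d 9. Their neighbours in that order were Mir378a, Mir126a, Mir23b, Mir99a, Mir23a and Mir143, with means from 42177 ± 267 CPM for Mir143 to 146001 ± 28746 CPM for Mir378a (SD, n = 2).

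A step separated these 4 genes from the other 5. Mirlet7f-2 had 5742 CPM in replicate 1 (11915 counts) and 6400 CPM in replicate 2 (11303 counts), so Mirlet7d stood above it by 8.89 times in replicate 1 and 6.18 times in replicate 2. Mir98, its neighbour in Huwe1, had 2029 CPM in replicate 1 (4210 counts) and 1045 CPM in replicate 2 (1846 counts). Mirlet7c-2 had 1199 CPM in replicate 1 (2487 counts) and 1398 CPM in replicate 2 (2469 counts), which overlapped with the libraries of Mir98.

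The lowest levels were those of the 2 genes beside Mirlet7d. Mirlet7a-1 had 752 CPM in replicate 1 (1561 counts) and 643 CPM in replicate 2 (1135 counts). Mirlet7f-1 had 213 CPM in replicate 1 (442 counts) and 267 CPM in replicate 2 (471 counts). All libraries of both genes lay below those of Mirlet7c-2, and the 2 genes did not overlap with each other. The spread between hearts, as SD over mean, was 7.66% for Mirlet7f-2 and 45.3% for Mir98, the extremes among the 9.

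**Figure D1:**
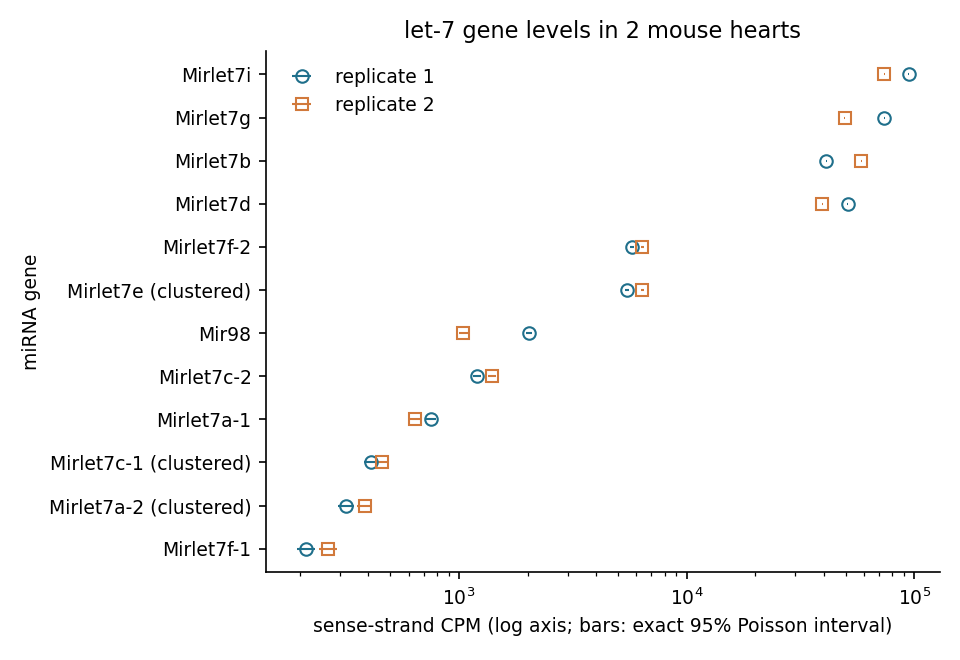
Sense-strand CPM (log axis) of the 9 genes and the other 3 let-7 genes (marked clustered), with circles for replicate 1, squares for replicate 2 and bars for the exact Poisson interval. Mirlet7i, Mirlet7g, Mirlet7b and Mirlet7d lie between 39545 and 94622 CPM, and the other 8 genes lie at 6400 CPM or below.

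The low genes are mostly those whose 5p sequence has a second copy. The 5p sequences of let-7a, let-7c and let-7f each stand in 2 measured hairpins, so 4 of the 9 genes, Mirlet7a-1, Mirlet7c-2, Mirlet7f-1 and Mirlet7f-2, share theirs with another gene. A read that holds only such a sequence maps to several places and is in no gene's count. These 4 genes had 7906 CPM together in replicate 1 and 8707 CPM together in replicate 2. The 5 genes whose 5p stands in 1 measured hairpin had 262640 CPM together in replicate 1 and 222369 CPM together in replicate 2. The strands from the 3′ arm, let-7a-1-3p and let-7c-2-3p, also have the same letters, while each of the other 7 genes has a 3p found in 1 measured hairpin. The counts therefore do not give the level of mature let-7a, let-7c or let-7f, and the files do not separate the arms.

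Copies of the same 5p sequence were counted very unequally, and they differ in the letters that follow it in the hairpin. The lines below show the 5p sequence and the next 6 bases of each copy, with the uridines that directly follow the 5p in capitals.
Mirlet7f-2: ugagguaguagauuguauaguuUUaggg
Mirlet7f-1: ugagguaguagauuguauaguugugggg
Mirlet7c-2: ugagguaguagguuguaugguuUUgggc
Mirlet7c-1: ugagguaguagguuguaugguuUagagu
Mirlet7a-1: ugagguaguagguuguauaguuUUaggg
Mirlet7a-2: ugagguaguagguuguauaguuUagagu

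In each pair the copy with the longer run of uridines after the 5p had the higher count in both libraries. Mirlet7f-2 (2 uridines) had 27.0 times the counts of Mirlet7f-1 (0 uridines) in replicate 1 (exact interval 24.5 to 29.7) and 24.0 times in replicate 2 (21.9 to 26.4). Counted from the 5′ end of the 5p, these 2 hairpins are identical over 22 bases and first differ by U23G. Mirlet7c-2 (2 uridines) had 2.92 times the counts of Mirlet7c-1 (1 uridine) in replicate 1 (2.70 to 3.16) and 3.04 times in replicate 2 (2.81 to 3.30). Mirlet7a-1 (2 uridines) had 2.36 times the counts of Mirlet7a-2 (1 uridine) in replicate 1 (2.15 to 2.59) and 1.67 times in replicate 2 (1.52 to 1.84). The hairpins of the let-7c pair and of the let-7a pair are identical over 23 bases and first differ by U24A. The part of these letters in the counts was not tested, and the pattern was seen in 3 pairs after their values were known. Across different 5p sequences no such order held, since Mirlet7i, the highest of the 9, has 0 uridines after its 5p. Its 5p stands in only 1 measured hairpin, so its counts do not bear on the pattern among copies that share a 5p.

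**Figure D2:**
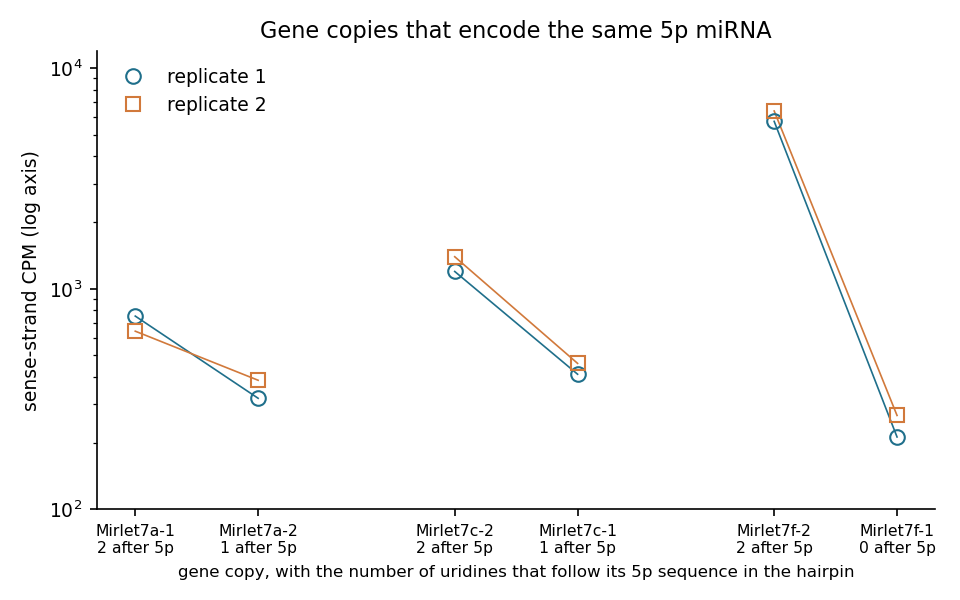
Sense-strand CPM (log axis) of the 6 gene copies that encode let-7a-5p, let-7c-5p or let-7f-5p, with a line joining the copies of each within a library (circles, replicate 1; squares, replicate 2). The copy with more uridines after the 5p, on the left of each pair, is higher in both libraries.

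LIN28 is known to bind the letters GGAG near the 3′ end of the let-7 loop, so the hairpins were searched for them. GGAG was found on the hairpin's own strand in 6 of the 9, against 37.2% of all 2202 measured hairpins. In these 6 it lay between the end of the 5p and the start of the 3p. All 3 clustered let-7 hairpins also held it. In Mirlet7e the first match lay within the 5p. Only first matches were placed, so whether its loop holds a later match was not looked at. On the other strand (read as CUCC), 1 of the 9 held it, against 40.6% of all. The letters were found in Mirlet7a-1, Mirlet7d, Mirlet7f-1, Mirlet7f-2, Mirlet7g and Mirlet7i, and in neither Mirlet7b, Mirlet7c-2 nor Mir98. The lines below give the 12 bases before the 3p and its first 6 bases for 4 of the genes, with GGAG in capitals where present.
Mirlet7g: guacaGGAGauaacugua
Mirlet7d: acaaGGAGuuaacuauac
Mirlet7b: cuccgaagauaacuauac
Mir98: guaagaagauaacuauac

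The miR-290 genes, known from pluripotent cells that express LIN28, were nearly absent from replicate 1. Together they had 1.45 CPM in replicate 1, against 190 CPM in replicate 2. Of the 9 genes, 4 had the 10 or more counts needed for the test of the libraries given below. All 4 were higher in replicate 2, against 20.1% of all tested genes, and Mir290b and Mir292b were at 0 in both. Their part in the let-7 values was not tested.

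The composition of the 9 genes differed between the hearts, and Mirlet7b moved against the other abundant genes. These shares need no scaling between libraries. Mirlet7b made up 15.2% of the 9 genes' counts in replicate 1 and 25.3% in replicate 2. Mirlet7g made up 27.3% in replicate 1 and 21.4% in replicate 2, and Mirlet7i 35.0% in replicate 1 and 32.0% in replicate 2. Mirlet7d made up 18.9% in replicate 1 and 17.1% in replicate 2. Mir98 made up 0.750% in replicate 1 and 0.452% in replicate 2, while Mirlet7a-1 made up 0.278% in both.

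**Figure D3:**
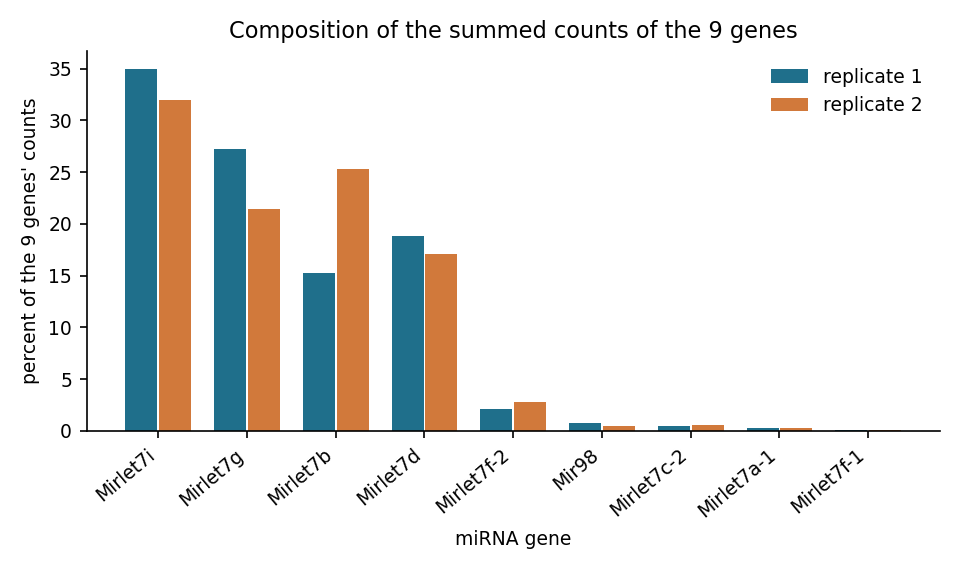
Share of each gene in the summed counts of the 9 genes, in percent, as bars from 0 for replicate 1 and replicate 2. Mirlet7b holds 15.2% in replicate 1 and 25.3% in replicate 2, and Mirlet7i, Mirlet7g and Mirlet7d each hold more in replicate 1.

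Every gene with 10 or more counts was tested for an unequal split between the libraries, with edgeR's TMM (trimmed mean of M values) scaling of library sizes. The test was an exact two-sided binomial test with Benjamini-Hochberg adjustment over 359 genes at a threshold of 0.05. It compares 2 libraries and not conditions. Of the 9 genes, 5 were higher in replicate 1, against 24.2% of tested genes, and 1 was higher in replicate 2, against 20.1%. Genes with many counts pass this test more often. Among the 140 tested genes whose mean reached 100 CPM, 44.3% were higher in replicate 1 and 33.6% in replicate 2, and the counts of let-7 genes are to be read against these shares. The median log2 ratio of replicate 1 over replicate 2 was 0.40 over the 9 genes and 0.01 over all tested genes. The median size of the log2 ratio, without its sign, was 0.40 for the 9 genes, 0.42 for all tested genes and 0.29 for the 140 tested genes whose mean reached 100 CPM.

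Mir98 differed most between the hearts. It was 2.18 times higher (exact interval 2.07 to 2.31) in replicate 1, a log2 ratio of 1.13 with an adjusted p of 7.91e-185. Mirlet7g followed at 1.68 times (1.66 to 1.69), Mirlet7d at 1.45 times (1.44 to 1.47) and Mirlet7i at 1.44 times (1.43 to 1.45) in the same direction. Their adjusted p-values are 0 at the precision of the computation. Mirlet7a-1 was 1.32 times higher (1.22 to 1.42) in replicate 1, with an adjusted binomial p of 6.46e-12.

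Mirlet7b went the other way. It was 1.26 times higher (1.25 to 1.27) in replicate 2, a log2 ratio of -0.34 for replicate 1 over replicate 2. The remaining 3 genes, Mirlet7f-2, Mirlet7c-2 and Mirlet7f-1, did not pass, with log2 ratios of 0.01, -0.05 and -0.15 and exact intervals that span 0. With library size alone as scaling, which lowers every log2 ratio by 0.17, these 3 were called higher in replicate 2, so 5 of the 9 were higher in replicate 1, against 18.7% of tested genes, and 4 in replicate 2, against 28.7%. The DESeq2 size factors added Mirlet7f-2 to the genes higher in replicate 1, which gave 6 against 26.7% of tested genes, and 1 in replicate 2 against 16.7%. The other 6 genes kept direction and call under all 3 scalings. Shares among tested genes whose mean reached 100 CPM were computed with TMM only, so the counts under the other scalings have no such share beside them.

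**Figure D4:**
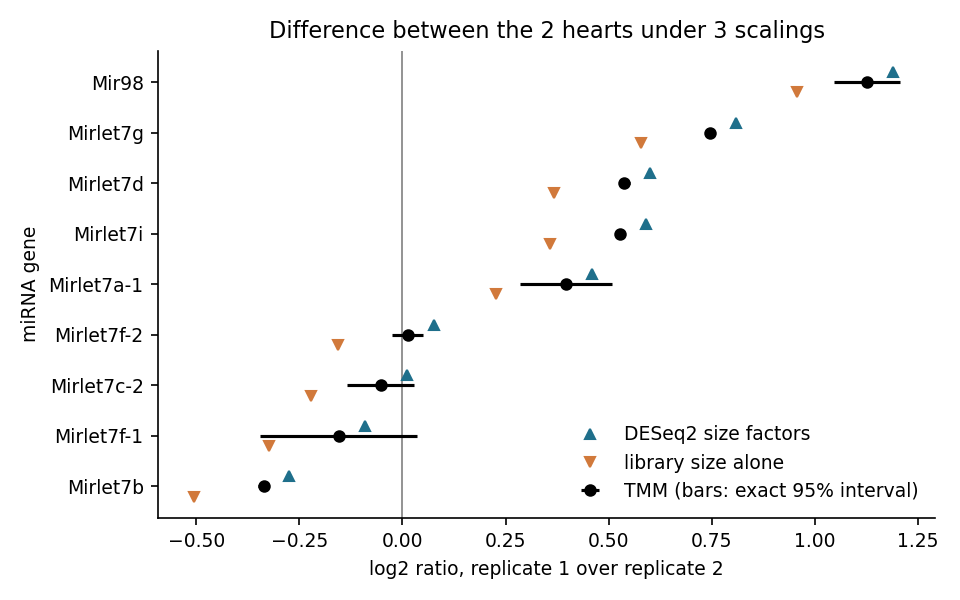
Log2 ratio of replicate 1 over replicate 2 for the 9 genes, with black points and exact interval bars for TMM, upward triangles for DESeq2 size factors and downward triangles for library size alone. Mir98 lies highest at 1.13 with TMM and Mirlet7b lowest at -0.34, and the points of Mirlet7f-2 and Mirlet7c-2 fall on both sides of 0.

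The 3 clustered let-7 genes were tested in the same way. With TMM, the log2 ratio was -0.06 for Mirlet7e (higher in replicate 2, adjusted binomial p = 0.00690), 0.01 for Mirlet7c-1 and -0.10 for Mirlet7a-2, and the last 2 did not pass. With DESeq2 size factors none of the 3 passed, and with library size alone all 3 were higher in replicate 2. Of the 6 miR-99/100 and miR-125 genes beside them, 4 were higher in replicate 2 and 1, Mir99b, in replicate 1, under each of the 3 scalings. Of all tested genes, 20.1% were higher in replicate 2 with TMM, 16.7% with DESeq2 size factors and 28.7% with library size alone. The shares higher in replicate 1 were 24.2%, 26.7% and 18.7%. Among tested genes whose mean reached 100 CPM, TMM gave 33.6% higher in replicate 2 and 44.3% in replicate 1. Mir125a had a log2 ratio of -0.96 and Mir125b-1 of -1.30.

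The uniquely placed counts of genes of 1 host transcript did not keep the same ratio in the 2 hearts. Every same-host pair holds at least 1 gene whose 5p stands in 2 measured hairpins. Reads that hold only that 5p are not in its count, and their part in these ratios was not tested. Mir98 had 0.353 times the counts of Mirlet7f-2 in replicate 1 (exact interval 0.341 to 0.366) and 0.163 times in replicate 2 (0.155 to 0.172). The ratio in replicate 1 was thus 2.16 times that in replicate 2 (2.04 to 2.30). Mir98 starts 786 bases after the end of Mirlet7f-2 in the same host gene. On chromosome 15, Mirlet7c-2 had 0.0291 times the counts of Mirlet7b in replicate 1 and 0.0239 times in replicate 2, a quotient of 1.22 (1.15 to 1.29).

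On chromosome 13 the pairs also shifted. Mirlet7f-1 had 0.00417 times the counts of Mirlet7d in replicate 1 and 0.00674 times in replicate 2, a quotient of 0.619 (0.542 to 0.706). Mirlet7a-1 changed less against Mirlet7d, with 0.0147 times its counts in replicate 1 and 0.0163 times in replicate 2 and a quotient of 0.907 (0.839 to 0.980). Mirlet7a-1 had 3.53 times the counts of Mirlet7f-1 in replicate 1 and 2.41 times in replicate 2, a quotient of 1.47 (1.26 to 1.71). For the separate genes Mirlet7i and Mirlet7g the quotient was 0.859 (0.849 to 0.868). These intervals hold counting error and not the spread between animals.

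**Figure D5:**
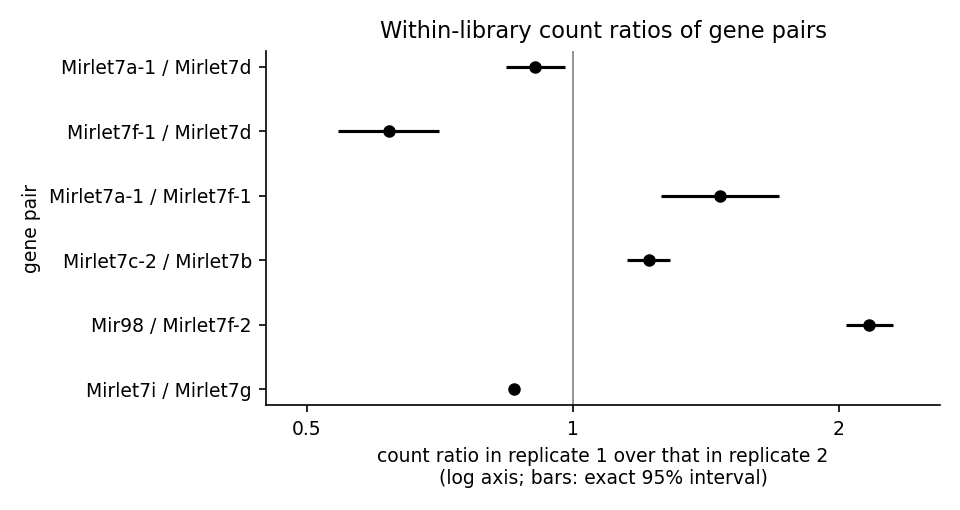
Count ratio of 2 genes in replicate 1 over the same ratio in replicate 2 (log axis), with exact interval bars, for 5 pairs that share a host transcript and for Mirlet7i over Mirlet7g. The pair of Mir98 and Mirlet7f-2 lies farthest from 1, at 2.16, and that of Mirlet7a-1 and Mirlet7d closest, at 0.907.

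Cell type markers, those of heart muscle included, also differed between the libraries, and their part in the let-7 values was not tested. With TMM, 24.2% of all tested genes were higher in replicate 1 and 20.1% in replicate 2. Among tested genes whose mean reached 100 CPM, the shares were 44.3% and 33.6%. All 3 erythroid genes, Mir451a, Mir144 and Mir486, were higher in replicate 1, with a sum of 45889 CPM there and of 7589 CPM in replicate 2. Of 3 endothelial genes, 2 were higher in replicate 1, and the list had a sum of 99058 CPM there and of 66887 CPM in replicate 2. Of 4 leukocyte genes, 1 was higher in replicate 1 and 3 in replicate 2, with sums of 4121 CPM in replicate 1 and of 5447 CPM in replicate 2. Of 4 tested fibroblast genes (5 measured, with Mir199a-1 at 0 in both), 1 was higher in replicate 1 and 1 in replicate 2. The fibroblast sums were 2599 CPM in replicate 1 and 3689 CPM in replicate 2. Of the 2 smooth muscle genes, 1 was higher in replicate 1 and 1 in replicate 2. Their sums were 43118 CPM in replicate 1 and 44232 CPM in replicate 2. The liver gene Mir122 had 57.8 CPM in replicate 1 and 31.7 CPM in replicate 2. In bulk tissue, fewer cells of a type and less RNA per cell cannot be told apart.

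The genes most like the summed counts of the 9, by the nearest log2 ratio over 2 libraries among genes of 1000 CPM or more, were Mir93, Mir486 and Mir151. Their log2 ratios were 0.40, 0.42 and 0.46, against 0.40 for the 9 genes in sum. With 2 libraries this likeness is a single ratio.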

How the data were processed

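Small RNA libraries from 2 mouse hearts were analysed as 1 group. The authors deposited raw read counts per miRNA gene on the mm10 build with the GENCODE M21 annotation, per the deposited notes, with an aligner and counter not given in the sources used here. Sense-strand counts were used, and CPM were computed over the 2202 gene rows, leaving out 4 rows that name no gene (multimapping, unmapped, no-feature and ambiguous reads). One read was worth 0.482 CPM for replicate 1 and 0.566 CPM for replicate 2. Library sizes were scaled by TMM (edgeR 4.0.16); DESeq2 1.42.0 size factors, library size alone, other filters, thinning and the counts without regard to strand were alternatives. Log2 ratios used a prior count of 0.5. With 1 library a side, a quasi-likelihood fit has no residual degrees of freedom. Each gene's split was therefore tested by an exact binomial test (scipy 1.17.1). That test was tried on simulated Poisson counts, which hold counting error only, so the trial does not cover the spread between animals. Intervals of levels are exact Poisson, of shares Clopper-Pearson, of ratios exact conditional. Nothing in the labels pairs the libraries with anything else; p-values measure the reads of these 2 libraries. Genes were named by a rule: the 9 genes, the other let-7, miR-99/100 and miR-125 genes, genes with the let-7 seed, neighbours in the order above 10000 CPM and the 3 genes nearest in log2 ratio. Genes, lists and pairs were chosen with earlier results of these data known. No genome sequence was used, so copies were sought among annotated hairpins.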

Additional observations from a re-analysis of the deposited data

Results flagged for a closer look

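Mirlet7b had reads opposite to its own strand, which enter none of the comparisons. There were 8 in all, 4 in replicate 1 and 4 in replicate 2, above the limit of 3 counts that a count of 0 allows, beside 85411 and 103263 counts on its own strand. They make up 0.00424% of the reads at the gene, and no miRNA gene is annotated on that strand there. The other 8 genes had 0 such reads in both libraries.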

How the results depend on the processing

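The 9 genes' share of counts, 25.1%, was 34.8% in the counts without regard to strand and 9.09% of all reads in the tables, both by construction, since the first leaves ambiguous reads out of the denominator and the second adds reads of no gene. It was 25.8% without the erythroid list, 23.1% without replicate 1 and 27.1% without replicate 2. All 9 genes were detected under every limit tried. The number higher in replicate 1 was 5 or 6 under all 6 alternatives, and the number higher in replicate 2 was 1 under 5 of them and 4 with library size alone. The log2 ratio of Mirlet7f-2 turned to -0.16 with library size alone and that of Mirlet7c-2 to 0.010 with DESeq2 size factors, and the other 7 genes kept their direction. Mirlet7f-1 has 0 counts without regard to strand, where the miRNA gene Gm24111 overlaps it on the other strand, so its pairs gave no value there; the other pairs did not move. The design has 1 group, so no paired analysis was possible because there are no groups to pair. Mirlet7f-1 has the fewest counts of the 9 genes, 442 and 471. Reads that hold only its 5p, which Mirlet7f-2 shares, are not among them.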
